A study of Bos taurus with 8 samples.

Results

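Transforming growth factor-β (TGF-β) is made as a dimer that stays folded inside its own propeptide, and this latent complex is usually joined to a latent TGF-β binding protein (LTBP) that ties it to the extracellular matrix. Once released, the ligand binds the type II receptor, which recruits and activates the type I receptor, which in turn phosphorylates Smad2 and Smad3. In articular cartilage the pathway is known for maintaining *PRG4* (lubricin) at the joint surface and for restraining hypertrophy of chondrocytes. The genes described here are the 3 ligands (*TGFB1*, *TGFB2* and *TGFB3*), the 3 receptors (*TGFBR1*, *TGFBR2* and *TGFBR3*) and the 4 binding proteins (*LTBP1*, *LTBP2*, *LTBP3* and *LTBP4*). They were chosen by name from the 24596 genes of the count table, with earlier results of these data known. All 10 were found there, and all 10 were among the 12857 genes with enough counts to be tested.

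RNA-Seq was performed on wild-type bovine chondrocytes from knee joints of calves aged 1 to 2 weeks. Slices from the surface gave the superficial zone chondrocytes (SZCs) and slices from near the bone gave the deep zone chondrocytes (DZCs), and the tissue between them was discarded. Cells of both zones were kept in DMEM/F12 medium with fetal bovine serum for 3 days. Each zone has 2 libraries, which the paper's methods call biological duplicates without stating whether they came from separate animals. All p-values therefore describe the spread between these 4 libraries.

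Library totals lay between 19918970 and 21890549 counts, so 3 counts correspond to between 0.129 and 0.187 CPM. Levels are in CPM, counts per 1000000 counts of a library after scaling by the trimmed mean of *M* values (TMM) of edgeR. The labels were checked on *PRG4*, which had 69682 and 46976 counts in SZCs and 246 and 1372 counts in DZCs. All 8 chondrocyte markers examined, among them *COL2A1*, *ACAN* and *SOX9*, were counted in every library, and all 5 superficial zone markers were higher in SZCs. The paper names those 5 genes as higher in SZCs from these same libraries, so they give no independent check. DZC replicate 1 stood apart. *COL2A1* took 24.5% of its counts, against 6.31% to 12.9% in the other libraries, and 6 genes of dividing cells summed to 14.4 CPM in it, against 161 to 284 CPM elsewhere. A sum over 5 fibroblast genes was 12666 and 17554 CPM in SZCs, 2798 CPM in DZC replicate 1 and 10598 CPM in DZC replicate 2. A sum over 6 leukocyte genes was 17.4 and 28.3 CPM in SZCs and 6.53 and 12.3 CPM in DZCs, and *PTPRC* had at most 14 counts in any library. For both of these sums each SZC library lay above each DZC library, as for *TGFB3*, *TGFBR3* and *LTBP1*. Of the fibroblast genes, *COL3A1* and *PDGFRA* were separated while *COL1A1*, *THY1* and *DPT* overlapped. *CD14*, the largest part of the leukocyte sum, and *TYROBP*, with at most 27 counts, were separated, while the other leukocyte genes overlapped. The median log2 fold change, SZC over DZC, was 0.95 for the fibroblast genes and 1.38 for the 3 leukocyte genes tested. A sum over 6 endothelial genes was 5.41 and 11.7 CPM in SZCs and 3.86 and 7.98 CPM in DZCs, which overlap, and *VWF* made up 3.36 CPM of the sum in DZC replicate 1, where *CDH5*, *KDR* and *EMCN* had 0 counts. DZC replicate 2 differed in another way. It had 468 counts of *MMP13*, 445 of *ALPL*, 268 of *IBSP*, 221 of *COL10A1* and 140 of *SP7*, genes of hypertrophic chondrocytes and bone-forming cells, and none of these had more than 23 counts in any other library. *BGLAP* and *DMP1* of the same list had 1 count each in it and at most 6 in the others. The sum over the 8 genes of that kind was 270 CPM there, 110 and 104 CPM in SZCs and 19.1 CPM in DZC replicate 1, and most of each sum was *SPP1*, at 201 CPM, 108 and 102 CPM and 18.9 CPM. What part these differences have in the values below was not tested. In bulk RNA a smaller number of expressing cells and less RNA per cell cannot be told apart.

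Of the 10 genes, *TGFB3*, *TGFBR3* and *LTBP1* were higher in SZCs at a false discovery rate (FDR) of 0.05, and 0 were higher in DZCs. In the latter direction 0 had an unadjusted p below 0.05 in this test, and 0 passed in DESeq2 or edgeR's quasi-likelihood test. The 3 of 10 compare with all tested genes, of which 2.93% passed in either direction and 2.23% passed as higher in SZCs (edgeR's exact test, adjusted over all tested genes). Both SZC libraries lay above both DZC libraries for 6 of the 10 genes, against 21.0% of all tested genes. The reverse held for *TGFB2* alone, against 20.5% of all tested genes. Without DZC replicate 1 the number with both SZC libraries above the remaining DZC library was 7, when 38.9% of all genes did so. The median log2 fold change of the 10 genes, SZC over DZC, was 1.12, and that of all tested genes was -0.04. The number that passed depended on the test, since edgeR's quasi-likelihood test called 0 of the 10 and 0 of all genes. Wherever that test is named in these results, it was fitted without the replicate number as a block. By that test 4 of the 10 had an unadjusted p below 0.05 (1126 of all genes), and DESeq2 called 4 of the 10. Of the 377 genes called in all, 287 were higher in SZCs and 90 in DZCs, and scaling by library totals gave 288 and 44.

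**Figure D1:**
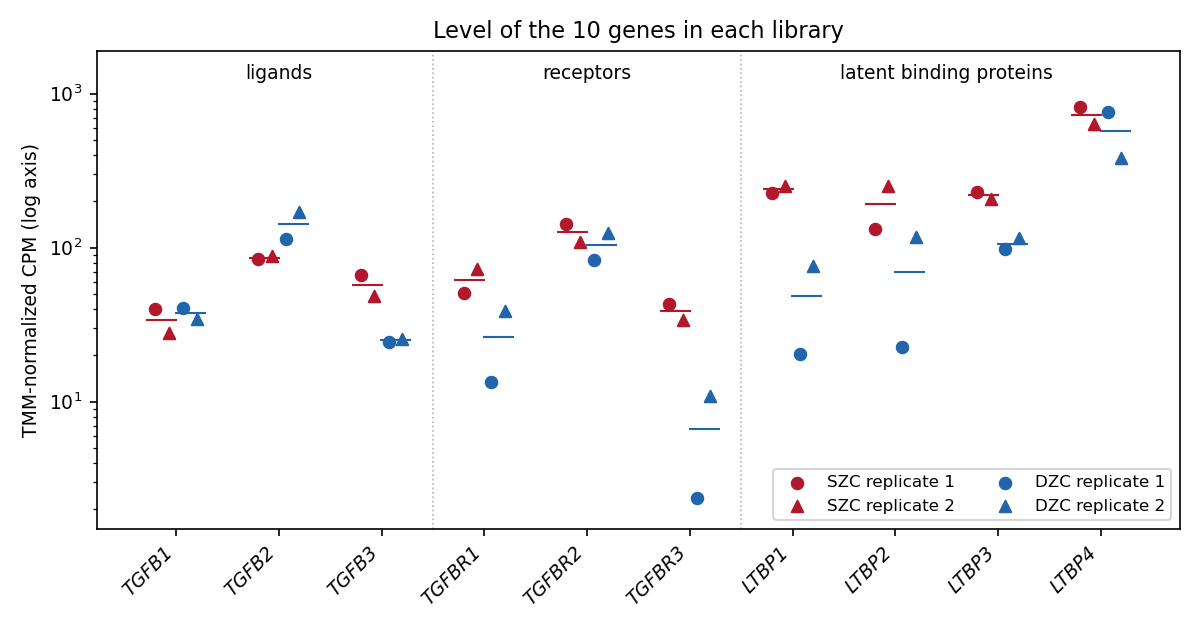
Level of each gene in each library, as TMM-normalized CPM on a log axis; red symbols are SZCs, blue symbols are DZCs, circles are replicate 1, triangles are replicate 2, and short lines are the means of 2 libraries. Red and blue symbols do not overlap for *TGFB2*, *TGFB3*, *TGFBR1*, *TGFBR3*, *LTBP1*, *LTBP2* and *LTBP3*, and the DZC symbols lie far apart for *TGFBR1*, *TGFBR3*, *LTBP1* and *LTBP2*.

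Among the ligands, *TGFB3* was the one higher in SZCs. *TGFB3* encodes an isoform used widely to induce cartilage formation in progenitor cells. SZCs gave 1455 and 1128 counts of it and DZCs gave 392 and 573. After scaling its level was 66.1 and 48.6 CPM in SZCs and 24.4 and 25.7 CPM in DZCs. The DZC libraries were nearly equal for this gene, unlike for the other genes that passed. The SZC mean was 57.4 ± 12.4 CPM and the DZC mean 25.0 ± 0.9 CPM (SD, n = 2 for each), a 2.29-fold difference. This is a log2 fold change of 1.20 ± 0.36 (standard error), with an FDR of 0.0355. Without DZC replicate 1 the log2 fold change was 1.16, and without DZC replicate 2 it was 1.25.

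*TGFB2* encodes the isoform that binds the type II receptor weakly by itself and relies on betaglycan. Its level was 83.9 and 88.02 CPM in SZCs and 113 and 171 CPM in DZCs. Both DZC libraries were higher than both SZC libraries, but the 95% interval of the difference reached 0. On the log2 scale it was -0.72 ± 0.38 (standard error, 95% interval -1.47 to 0.02, FDR 0.599). It was -0.38 with DZC replicate 2 left out, and -0.98 with DZC replicate 1 left out. In every fit without a DZC library, the lone DZC library was assumed to vary as the SZC libraries did. Only the fold changes of such fits are therefore given for single genes.

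*TGFB1*, the isoform most abundant in many adult tissues, was at 40.0 and 28.1 CPM in SZCs and at 40.7 and 34.2 CPM in DZCs. The zones overlapped. The difference was -0.14 ± 0.37 (standard error) on the log2 scale, and the 95% interval ran from -0.87 to 0.59, which includes 0. The sign of this small value depended on the scaling, and it was 0.19 with library totals.

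Within each library, the share of a family's counts that one gene took does not depend on how libraries are scaled. Shares are of counts and are not corrected for gene length, which cancels only when the ratio of a pair of genes is compared between zones. *TGFB3* took 34.8% and 29.5% of all ligand counts in SZCs and 13.7% and 11.1% in DZCs. *TGFB2* took 44.2% and 53.4% in SZCs and 63.5% and 74.0% in DZCs. These shares did not overlap between the zones for either gene, whereas those of *TGFB1* did, at 21.0% and 17.1% in SZCs and 22.8% and 14.8% in DZCs. The log2 ratio of *TGFB3* to *TGFB2* was -0.34 and -0.85 in SZCs and -2.19 and -2.71 in DZCs, a mean difference of 1.85. The ratio of *TGFB3* to *TGFB1* was 0.72 and 0.78 in SZCs and -0.73 and -0.41 in DZCs. The exact two-sided permutation test gave p = 0.333 for these ratios, the smallest value that 2 libraries against 2 allow, so none could pass a threshold. In all, 12 such ratios among the 10 genes were compared, and the smallest adjusted p was 0.5 (exact permutation test, Benjamini–Hochberg).

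**Figure D2:**
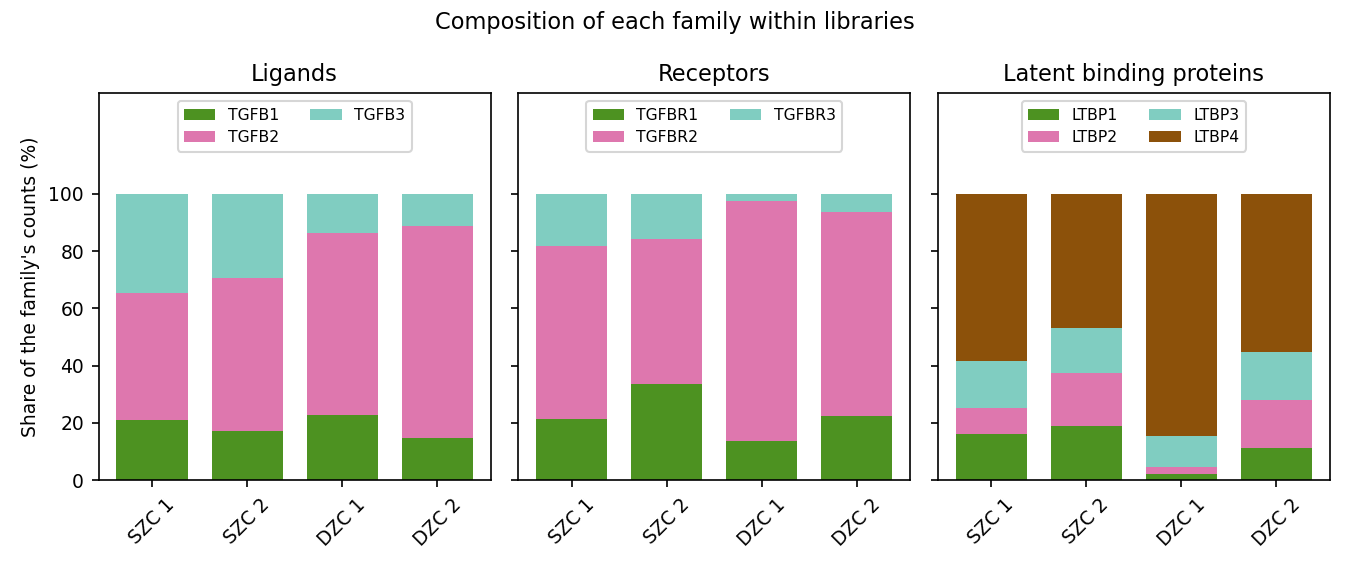
Share of the counts of each family (percent, stacked bars) taken by each gene in each library; shares are not corrected for gene length and are to be compared between libraries only. The *TGFB3* and *TGFBR3* segments are larger in both SZC libraries than in both DZC libraries, and *LTBP4* takes 84.5% of the binding protein counts in DZC replicate 1 against 47.0% to 58.4% in the other libraries.

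Of the receptors, *TGFBR3* showed the largest fold change among the 10 genes when all 4 libraries were used. It encodes betaglycan, a membrane proteoglycan that presents ligand, *TGFB2* in particular, to the signalling receptors, and whose shed ectodomain can also sequester ligand. SZCs gave 955 and 786 counts of it and DZCs gave 38 and 244. Its level was 43.4 and 33.9 CPM in SZCs and 2.36 and 10.9 CPM in DZCs. Both DZC libraries were low, and DZC replicate 1 was the lower of them. The SZC mean was 38.6 ± 6.7 CPM and the DZC mean 6.65 ± 6.06 CPM (SD, n = 2 for each), a 5.78-fold difference. This is a log2 fold change of 2.53 ± 0.70 (standard error), with an FDR of 0.0289. The fold was 3.54 without DZC replicate 1 and 16.5 without DZC replicate 2, so its size depended on which DZC library was used.

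*TGFBR1* encodes the type I receptor (ALK5), the kinase that phosphorylates Smad2 and Smad3. Its level was 50.9 and 72.6 CPM in SZCs and 13.4 and 39.1 CPM in DZCs. The zones did not overlap, but the DZC libraries differed 2.91-fold from each other. The zones differed by 1.23 ± 0.57 (standard error) on the log2 scale, with a 95% interval of 0.12 to 2.35 and an FDR of 0.439. Leaving out DZC replicate 1 made it 0.67, and leaving out DZC replicate 2 made it 2.22.

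*TGFBR2* encodes the type II receptor, which binds ligand first. It was at 142 and 109 CPM in SZCs and at 82.7 and 124 CPM in DZCs, and the zones overlapped. The zones differed by 0.28 ± 0.39 (standard error) on the log2 scale, with a 95% interval of -0.50 to 1.05, which includes 0. This was 0.02 without DZC replicate 1 and 0.62 without DZC replicate 2. Its share of the receptor counts was 60.1% and 50.6% in SZCs and 84.0% and 71.3% in DZCs. Over the same libraries the share of *TGFBR3* was 18.3% and 15.7% in SZCs and 2.40% and 6.27% in DZCs. The log2 ratio of *TGFBR3* to *TGFBR2* was -1.70 and -1.67 in SZCs and -4.86 and -3.45 in DZCs, a mean difference of 2.47. The ratio of *TGFBR1* to *TGFBR2* was -1.47 and -0.58 in SZCs and -2.58 and -1.66 in DZCs. Both ratios were higher in each SZC library than in each DZC library (p = 0.333 by the exact permutation test, the smallest possible).

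**Figure D3:**
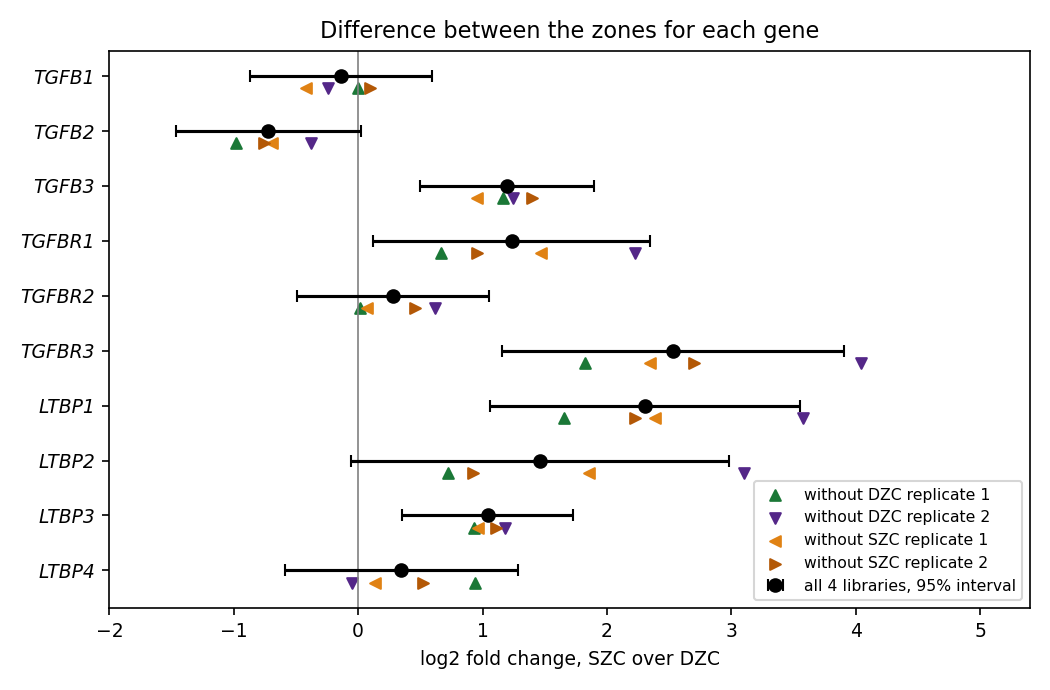
Log2 fold change of each gene, SZC over DZC, with all 4 libraries (black points, bars give the 95% interval from the model) and after leaving out 1 library at a time (coloured triangles). The intervals of *TGFB3*, *TGFBR1*, *TGFBR3*, *LTBP1* and *LTBP3* lie above 0. Leaving out a DZC library moved every gene except *TGFB1* and *TGFB3* more than leaving out an SZC library.

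The binding proteins differed among themselves. *LTBP1*, which binds the latent complexes of all the TGF-β isoforms and anchors them to fibronectin and fibrillin, had 4978 and 5871 counts in SZCs, against 326 and 1706 in DZCs. Its level was 226 and 253 CPM in SZCs and 20.3 and 76.5 CPM in DZCs. The SZC libraries were close to each other, and both DZC libraries were lower. The SZC mean was 240 ± 19 CPM and the DZC mean 48.4 ± 39.7 CPM (SD, n = 2 for each), a 4.95-fold difference. On the log2 scale this is 2.31 ± 0.64 (standard error), with an FDR of 0.0256. The fold was 3.14 without DZC replicate 1 and 11.9 without DZC replicate 2.

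*LTBP3*, which also binds latent TGF-β and is needed for normal skeletal growth, was at 229 and 208 CPM in SZCs and at 97.4 and 115 CPM in DZCs. The libraries of a zone were close to each other and the zones did not overlap. The SZC mean was 219 ± 15 CPM and the DZC mean 106 ± 13 CPM (SD, n = 2 for each). SZCs were 2.06-fold higher, or 1.04 ± 0.35 (standard error, 95% interval 0.35 to 1.73) on the log2 scale. Its FDR was 0.0924 in the exact test and 0.0367 in DESeq2, so its call depended on the tool. The log2 fold change was 1.18 without DZC replicate 2 and 0.93 without DZC replicate 1.

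*LTBP2*, the member of the family that does not bind latent TGF-β and is a component of fibrillin microfibrils, was at 132 and 252 CPM in SZCs and at 22.6 and 117 CPM in DZCs. The lowest SZC library was only slightly above the highest DZC library. It differed by 1.46 ± 0.78 (standard error) on the log2 scale, with an FDR of 0.64. The fold was 1.65 without DZC replicate 1 and 8.58 without DZC replicate 2.

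*LTBP4*, known for its part in elastic fibre assembly, was at 825 and 632 CPM in SZCs and at 762.4 and 382 CPM in DZCs, and the zones overlapped. SZCs were 0.35 ± 0.48 (standard error) higher on the log2 scale, with a 95% interval of -0.59 to 1.28. This gene differed from the other binding proteins in being higher in DZC replicate 1 than in DZC replicate 2. Its log2 fold change was 0.94 without DZC replicate 1 and -0.051 without DZC replicate 2. *LTBP1* took 16.0% and 18.8% of the binding protein counts in SZCs and 2.25% and 11.1% in DZCs, with no overlap. The log2 ratio of *LTBP1* to *LTBP3* was -0.02 and 0.28 in SZCs and -2.24 and -0.59 in DZCs. The ratio of *LTBP3* to *LTBP4*, at -1.85 and -1.60 in SZCs and -2.96 and -1.72 in DZCs, overlapped between the zones.

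The calls of *TGFB3*, *TGFBR3* and *LTBP1* were each lost in edgeR's quasi-likelihood test without the replicate block (FDR 0.269 for the ligand and 0.361 for the other genes). With either SZC library left out they were lost as well, at FDRs of 0.415 and 0.0698 for *TGFBR3*, 0.187 and 0.143 for *LTBP1*, and 1 and 0.552 for *TGFB3* (edgeR's exact test without SZC replicate 1 and 2). Their log2 fold changes then stayed between 0.95 and 2.70, and in these fits the spread came from the DZC libraries alone. With all libraries, scaling by library totals ended the calls of *TGFBR3* (exact test, FDR 0.138) and *LTBP1* (0.123). The call of *TGFB3* was lost with no filter (exact test, FDR 0.0531) and with common then gene-wise dispersion (0.0726). Because reads were counted without regard to strand, reads of overlapping genes cannot be told apart. In the RefSeq annotation of assembly ARS-UCD2.0, *TGFB3* overlaps *IFT43*, *TGFB1* overlaps *HNRNPUL1* and *CCDC97*, and *TGFBR1* overlaps a pseudogene. *IFT43* was at 10.4 and 12.5 CPM in SZCs and at 22.8 and 11.9 CPM in DZCs. Its log2 fold change was -0.60 (FDR 0.895), of the opposite sign to that of *TGFB3*.

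The 2 DZC libraries differed from each other in part of the family. *LTBP2* was 5.13-fold, *TGFBR3* 4.48-fold, *LTBP1* 3.76-fold and *TGFBR1* 2.91-fold higher in DZC replicate 2 than in DZC replicate 1. These 4 of 10 genes were more than 2-fold higher there, as were 16.6% of all tested genes. For *TGFB3* the ratio was 1.05 and for *LTBP3* it was 1.18, so the DZC libraries were close for these genes. Between the SZC libraries 0 of the 10 were more than 2-fold apart, against 6.81% of all tested genes, and the largest difference was 1.91-fold, for *LTBP2*.

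**Figure D4:**
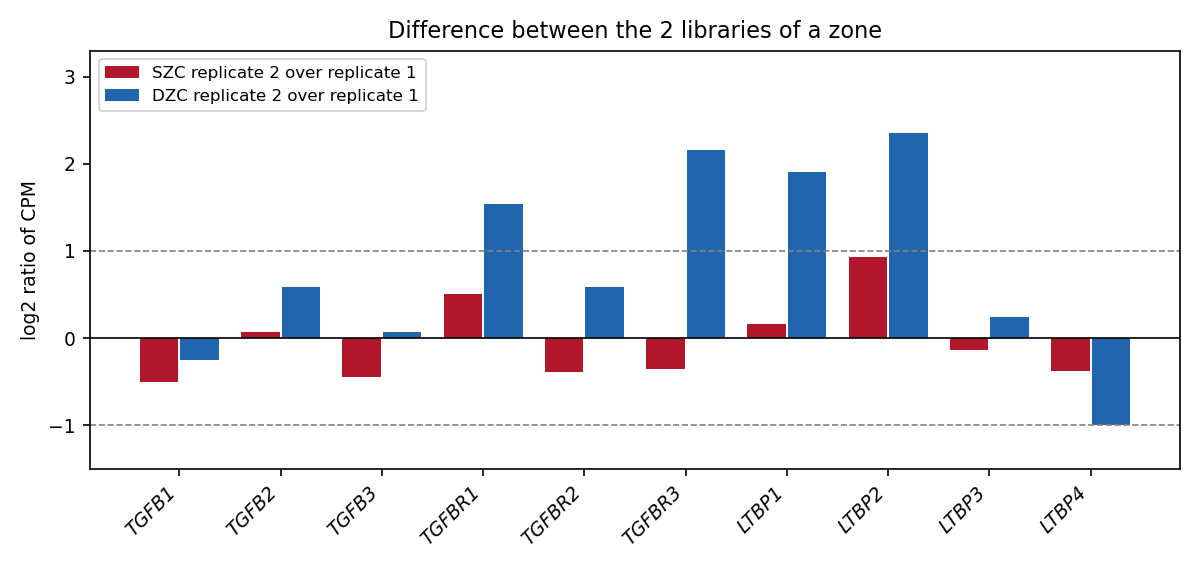
Log2 ratio of CPM between the libraries of a zone (replicate 2 over replicate 1) for each gene, red for SZCs and blue for DZCs; dashed lines mark a 2-fold difference in either direction. The blue bars of *TGFBR1*, *TGFBR3*, *LTBP1* and *LTBP2* pass the upper line, *LTBP4* lies at the lower line, and no red bar passes a line.

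Genes that store or activate latent TGF-β were described from a list of 22, of which 20 were tested. They include fibrillins, fibronectin, thrombospondin 1, integrin subunits, proteases and ligand-binding proteoglycans. *DCN* and *FBN2* were higher in SZCs, 0 were higher in DZCs by edgeR's exact test, and 18 did not pass. Of all tested genes, 2.23% passed as higher in SZCs. Of the list, 4 had an unadjusted p below 0.05 as higher in SZCs and 0 as higher in DZCs. Among the 12857 tested genes 1169 had such a p, counting either direction. DESeq2 called 2 of the list and the quasi-likelihood test 0. The median log2 fold change of the list was -0.05. *DCN* encodes decorin, a small proteoglycan that binds TGF-β. It was at 1029 and 672 CPM in SZCs and at 114 and 270 CPM in DZCs, which differ by 2.15 ± 0.54 (standard error) on the log2 scale, with an FDR of 0.00804. Its fold was 4.43 with all libraries, 3.16 without DZC replicate 1 and 7.55 without DZC replicate 2, and it did not pass without SZC replicate 1 (fold 3.50, FDR 0.517). *FBN2* encodes fibrillin 2, a microfibril protein of developing tissue. It was at 100.2 and 78.7 CPM in SZCs and at 2.24 and 19.0 CPM in DZCs, which differ by 3.07 ± 0.87 (standard error) on the log2 scale, with an FDR of 0.0463. The DZC level of *FBN2* differed 8.15-fold between the libraries, and the fold between the zones was 4.73 without DZC replicate 1 and 40.3 without DZC replicate 2. It did not pass without SZC replicate 1 (FDR 0.195).

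Of this list, 12 of the 20 tested genes were more than 2-fold higher in DZC replicate 2 than in DZC replicate 1, against 16.6% of all tested genes. Thrombospondin 1, which can activate latent TGF-β, and fibronectin are given as examples chosen after their values were seen. *THBS1* was at 1471 and 5603 CPM in SZCs and at 2829 and 20621 CPM in DZCs. *FN1* was at 1731 and 3163 CPM in SZCs and at 2014 and 9353 CPM in DZCs. For both genes the zones overlapped, and DZC replicate 2 was the highest library.

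Of 17 genes that control the receptors or act beside them, 16 were tested and *BAMBI* passed, with 0 higher in DZCs by edgeR's exact test. Of all tested genes, 2.23% passed as higher in SZCs. At an unadjusted p below 0.05 there were 3 higher in SZCs and 1 higher in DZCs, against 1169 of the 12857 tested genes in either direction. DESeq2 called 1 of the list and the quasi-likelihood test 0. *BAMBI* encodes a pseudoreceptor without a kinase domain that dampens signalling. It was at 13.1 and 12.5 CPM in SZCs and at 2.80 and 4.57 CPM in DZCs, which differ by 1.79 ± 0.50 (standard error) on the log2 scale, with an FDR of 0.0224. The difference was 1.49 without DZC replicate 1 and 2.21 without DZC replicate 2, and it did not pass without SZC replicate 1 (FDR 1) or SZC replicate 2 (FDR 0.806). Of 14 Smads and Smad co-regulators, 13 were tested and 0 passed in edgeR's exact test, in DESeq2 or in the quasi-likelihood test, with 0 at an unadjusted p below 0.05. The lowest p-values belonged to *SMAD7*, the inhibitory Smad induced by the pathway, at 0.84 on the log2 scale (FDR 0.678), and to *SKI*, a co-repressor, at 0.55 (FDR 0.851). Without DZC replicate 1 these values were 0.51 and 0.22, and without DZC replicate 2 they were 1.31 and 1.00. The median log2 fold change of these lists was -0.02 and 0.04.

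Of 20 genes often used as readouts of TGF-β signalling, 17 were tested and 0 passed in either direction in edgeR's exact test. At an unadjusted p below 0.05 there was 1 higher in SZCs and there were 4 higher in DZCs. Of the 12857 tested genes, 1169 had such a p in either direction. The quasi-likelihood test called 0 of the list. *TGFBI*, which encodes a secreted matrix protein, was at 159.5 and 142 CPM in SZCs and at 41.1 and 77.5 CPM in DZCs, which is 1.34 higher on the log2 scale (FDR 0.0701). *CCN2*, which encodes connective tissue growth factor, was at 951 and 1247 CPM in SZCs and at 2016 and 5162 CPM in DZCs, a difference of -1.71 on the log2 scale (FDR 0.0847). These 2 passed in DESeq2, at FDRs of 0.0461 and 0.0229, with opposite signs. *CCN2* was at -2.23 without DZC replicate 1 and at -0.86 without DZC replicate 2. It did not pass without SZC replicate 1 (-1.53) or SZC replicate 2 (-1.91). *TGFBI* was at 0.96 without DZC replicate 1 and at 1.89 without DZC replicate 2, and it did not pass without either SZC library. The median log2 fold change of the list was -0.39. Of the 17 genes, 9 were more than 2-fold higher in DZC replicate 2 than in DZC replicate 1 (16.6% of all tested genes). Over the 4 lists together, 3 of 66 tested genes passed, all 3 of them higher in SZCs (2.23% of all tested genes did so).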

How the data were processed

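The authors sequenced single-end reads from SMART-Seq v4 libraries, aligned them with STAR 2.5.2b to the cow genome UMD 3.1 from Ensembl and deposited counts per gene, for an unstranded library and without normalization. A second deposited table holds the authors' own fold changes and FDRs. From it only gene symbols were taken, which filled 19 of 6119 blank names. The ATAC-Seq libraries were not used here.

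Labels gave each library its zone. In edgeR 4.0.16 (R 4.3.3) genes were filtered by the default filter, which was chosen here. As in the paper's methods, they were then scaled by TMM and tested between the zones with the exact test and Benjamini–Hochberg adjustment. Standard errors follow from the gene-wise dispersion, and 95% intervals are the log2 fold change ± 1.96 standard errors. Ratios of genes used CPM + 0.5, and ratios of replicates CPM + 0.1. Replicates were not duplicates of each other (chi-square per degree of freedom 61.9 for SZCs and 303 for DZCs). Intervals cover the spread between 2 libraries per zone.

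Alternatives were the quasi-likelihood test, with and without the replicate number as a block, DESeq2 1.42.0, other filters, scalings and dispersions, and leaving out each library. Removing *COL2A1*, and the overlap of zones without a library, were tried after the values were seen. In simulated counts with dispersions varying between genes, the exact test recovered 59.6% of genes changed by 2 on the log2 scale among 12650 tested, and 24.5% of its calls were false. With a common dispersion and 12710 genes tested, it recovered 49.0% of such genes, and 2.61% of its calls were false. Both simulations gave the zones the same dispersion, whereas the DZC libraries here differed more than the SZC libraries. These rates therefore need not hold for the data.

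The 10 genes and all lists were chosen with earlier results of these data known. Named genes were the 10, *PRG4* and *COL2A1*, the called genes of each pathway list or, where none was called, the 2 with the smallest p, and markers. *PMEPA1*, *TGIF2*, *CDKN2B* and *IL11* of the lists were not analysed here. A marker list of mural cells (5 genes) summed to between 1708 and 2547 CPM in the libraries, of which *CSPG4* made up between 1690 and 2533 CPM. Of the marker lists, 5 of 5 superficial genes were called higher in SZCs and 1 of 8 chondrocyte genes (*MATN3*) higher in DZCs, and 0 of the 6 other lists by the exact test, in which each but that of dividing cells had 1 gene at an unadjusted p below 0.05. DESeq2 called 4 of the superficial and 3 of the chondrocyte genes, and the quasi-likelihood test 0. Sequences and gene lengths were not used here.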

Additional observations from a re-analysis of the deposited data

How the results depend on the processing

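Without the replicate block, edgeR's quasi-likelihood test called 0 genes, in both directions, among the 10 and in the pathway lists alike, with 1126 genes at an unadjusted p below 0.05; the exact test had 1169. Scaling by library totals moved the median log2 fold change of all genes from -0.04 to 0.26, left 44 genes higher in DZCs and 1 of the 10 called (*TGFB3*), and gave *TGFBR3* an FDR of 0.138, *LTBP1* one of 0.123 and *TGFB1* a log2 fold change of 0.19 (edgeR's exact test). *FBN2* (FDR 0.167) and *BAMBI* (0.0786) lost their calls there too. Of all calls 86.7% were then higher in SZCs, against 76.1%. *TGFB3* also missed the threshold with no filter (FDR 0.0531) and with common then gene-wise dispersion (0.0726), as did *BAMBI* with the latter (0.0538). DESeq2 called 5 pathway genes, against 3. The cause of these changes was not tested.

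With each library left out in turn, the number called ranged from 58 to 2725 genes, the number higher in SZCs from 52 to 1607 and higher in DZCs from 6 to 1118. Of the 10 genes 0 to 6 were called, and of the pathway lists 0 to 21. The dispersion of these fits rests on the zone that keeps 2 libraries. The log2 fold change ranged from -0.42 to 0.093 for *TGFB1* and from -0.051 to 0.94 for *LTBP4*, and these were the only genes of the 10 that changed sign under any alternative run.

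In the paper's methods, every cartilage core yielded a superficial and a deep slice, and slices were collected by zone for each joint. Same-numbered libraries share a number, but no source states that they came from a shared joint, animal or day. Their deviations from the zone means had a correlation of 0.42 across 12857 genes. With the replicate block 347 genes passed that test, 277 of them shared with the exact test, and 2 of the 10 did, *TGFBR3* (FDR 0.0349) and *LTBP1* (0.0215). *TGFB3* had an FDR of 0.0656 and *LTBP2* one of 0.0503 in that fit. Of the pathway lists 4 genes passed with the block, *FBN2* (0.0332) among them, while *DCN* (0.062) and *BAMBI* (0.0518) did not.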
